A study of Mus musculus with 6 samples.

Results

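The genes described here are 9 genes that resting, or homeostatic, microglia are known for, out of 24054 genes in the count table: P2ry12, P2ry13, Tmem119, Cx3cr1, Csf1r, Sall1, Siglech, Gpr34 and Olfml3. They were chosen by name from what is known of microglia, by a rule that uses no measured value. Earlier results of these data were known when they were chosen, so the choice was not blind to the data. All 9 had enough reads to be tested. None of the 9 genes differed between MitoParks and littermate controls past the cutoffs, an unadjusted p below 0.05 together with more than a 1.5-fold difference, and a gene past both is said to be called below. Of all genes tested, 0.577% were called. Fitted levels were higher in MitoParks for 8 genes and lower for 1, by between -0.01 and 0.37 on the log2 scale. A fall by more than 1.5-fold lay outside the 95% interval of 8 of the 9 genes, and a rise of that size lay outside the interval of 4. The groups overlapped for 8 of the 9 genes and did not for 1, as was so for 4.71% of all genes tested. P2ry12, P2ry13 and Gpr34 were higher where myelin genes were higher, a likeness noticed after the values were seen and not independently tested. Their slopes were above 0 also when any 1 mouse was left out, as were those of Olfml3 and Siglech. Adjusted p-values of the slopes depended on which mice were in the fit. By edgeR, 5 of 9 members had a slope with an unadjusted p below 0.05, against 15.1% of all genes tested. Without littermate controls 1 and 3, none of the 9 did.

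Microglia are the resident macrophages of the brain. In the healthy brain they carry long moving processes, sense purines, chemokines and lipids released by neighbouring cells, and depend on signals through the CSF1 receptor to survive and on TGF-beta to keep their identity. The receptors and surface proteins of that state are lower in many kinds of microglial activation, and microglia are dense in the substantia nigra (SN), where the dopaminergic (DAergic) neurons that degenerate in Parkinson's disease lie.

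RNA was taken from the SN of 3 MitoParks and of 3 littermate controls, which the sample labels call PD and Control, at 16 to 17 weeks of age. MitoParks carry Cre at a single Dat (Slc6a3) allele and loxP sites in both Tfam alleles (Dat+/Cre, Tfam LoxP/LoxP), and littermate controls carry loxP in a single Tfam allele and no Cre (Dat+/+, Tfam+/LoxP), on C57BL/6. Cre is therefore active in cells that express the dopamine transporter, and not in microglia. None of the mice was treated, and the sex of each mouse is not used here. The labels name the tissue as brain and the paper as SN. The labels do not say whether the libraries were made from separate preparations, so the p-values measure the spread between these 6 samples.

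The deposited values are expected counts per gene, which summed to between 8140777 and 10528602 per mouse. For the members they lay between 50 and 740 per mouse, and levels are given below as CPM, counts divided by library size after TMM normalization. Values of single mice are always given in the order of mice 1, 2 and 3 of a group. On the CPM scale 3 counts correspond to between 0.285 and 0.366 CPM. Tfam, the floxed gene, had 40.3, 44.4 and 45.5 CPM across the littermate controls and 32.7, 33.1 and 33.2 CPM across the MitoParks, so each MitoPark was below each control (log2 fold change -0.40, unadjusted p = 0.00565 and adjusted p = 0.999 by edgeR). The 10 markers of DAergic neurons summed to 530.2, 625.5 and 1653 CPM across the littermate controls and 344.8, 655.5 and 634.1 CPM across the MitoParks, so littermate control 3 stands apart. All 10 were lower in MitoParks with a median log2 fold change of -0.65, and without littermate control 3 only 5 were lower and the median was -0.0686. The dopamine transporter gene Slc6a3, of which MitoParks have a single intact copy, was called lower with littermate control 3 (-2.301) and without it (-0.97), and not with robust dispersion estimates (unadjusted p = 0.0859 by edgeR). Markers of blood leukocytes were near 0, since none of 9 genes passed the filter and the list summed to at most 3.29 CPM in any mouse. A pair of the members is also known from other cells, Siglech from plasmacytoid dendritic cells and Tmem119 from osteoblasts, and of 6 marker genes of those cells only the bone factor Sp7 passed the filter, at 1.49 CPM in controls and 1.46 CPM in MitoParks.

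Per kilobase of the longest transcript in the GENCODE annotation, the members fell into an upper and a lower level. In littermate controls Csf1r was highest, at 14.1 ± 1.32 CPM per kilobase (SD, n = 3), followed by P2ry12 at 12.0 ± 3.71 and Cx3cr1 at 9.43 ± 1.45. Below them came Tmem119 at 6.48 ± 1.06, Gpr34 at 5.55 ± 2.14, Sall1 at 5.13 ± 1.32, Siglech at 4.41 ± 0.599, P2ry13 at 3.82 ± 2.01 and Olfml3 at 2.72 ± 0.633. Only between Cx3cr1 and Tmem119 did the control ranges of neighbours in this order not overlap. MitoParks had the same 4 genes on top in the same order and Siglech in place 5 instead of 7. The place of Olfml3 depends on its length, since the longest GENCODE transcript has 5465 bases and the RefSeq gene spans 2608, with which Olfml3 would be at 5.71 CPM per kilobase in controls.

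**Figure D1:**
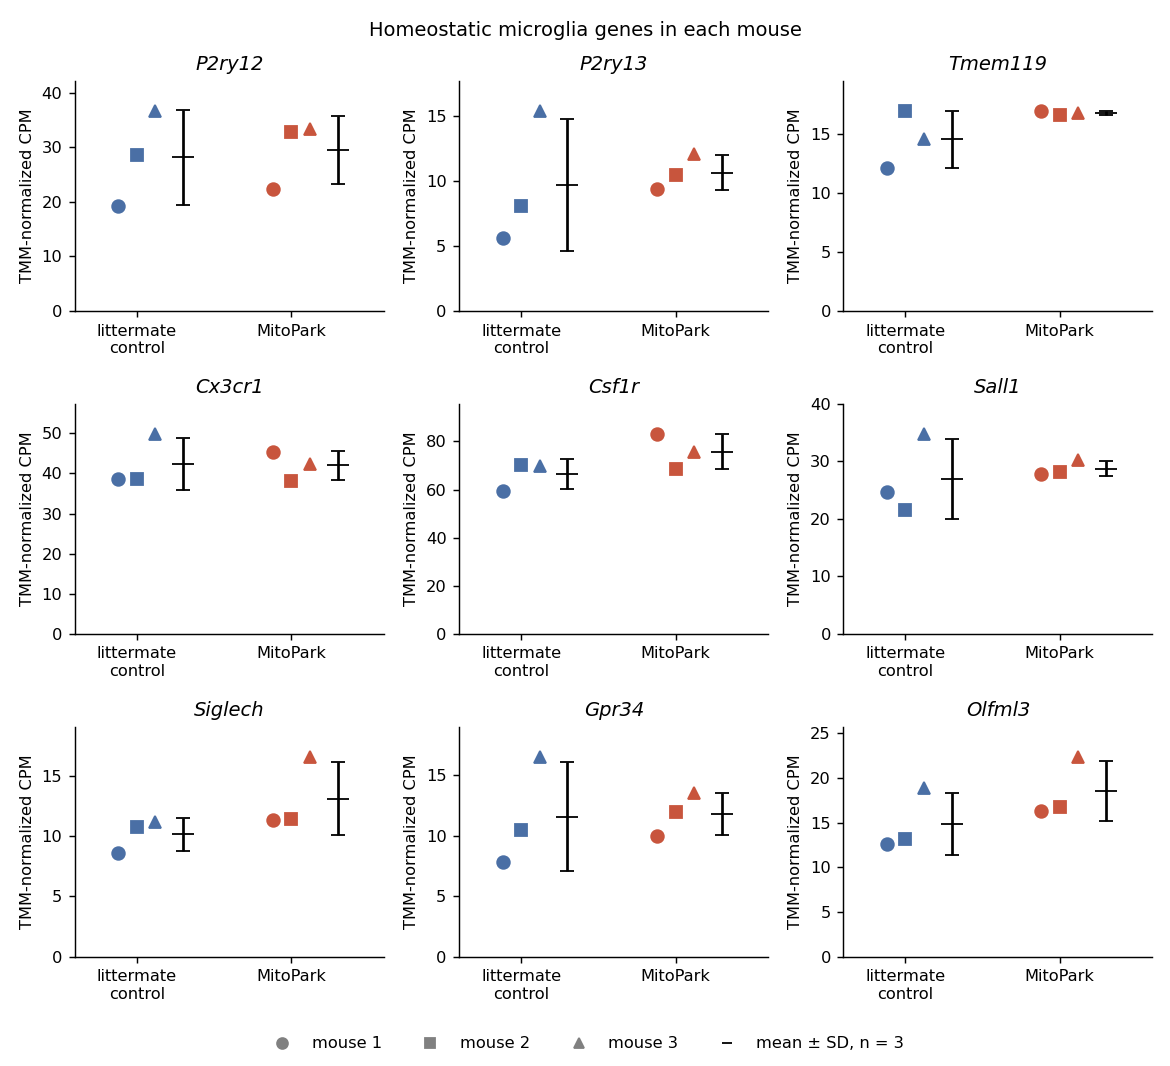
TMM-normalized CPM (y axis, from 0) of the 9 homeostatic microglia genes in 3 littermate controls (blue) and 3 MitoParks (red); symbols mark mice 1, 2 and 3 of each group, and bars give the mean ± SD. The groups overlap in every panel but that of Siglech, and littermate control 1 is the lowest mouse for 7 of the 9 genes.

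P2ry12, P2ry13 and Gpr34 encode receptors for purines or lysophospholipids. P2ry12 encodes the ADP receptor by which microglial processes turn towards damaged cells, and P2ry13 encodes a related ADP receptor. P2ry12 was at 19.3, 28.6 and 36.7 CPM across the littermate controls and 22.3, 32.9 and 33.3 CPM across the MitoParks. The lowest and the highest mouse were both littermate controls, so the range of the MitoParks lay inside that of the controls. The log2 fold change was 0.07 (standard error 0.23, 95% interval -0.46 to 0.59), and edgeR's quasi-likelihood fit gave an unadjusted p of 0.785 and the exact permutation test p = 0.7. In bulk tissue, a difference in the number of microglia and a difference in RNA per microglial cell cannot be told apart, here and below.

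P2ry13 was at 5.57, 8.07 and 15.3 CPM across the littermate controls and 9.39, 10.4 and 12.0 CPM across the MitoParks. Again both ends of the range were littermate controls, and their coefficient of variation, 52.6%, was the largest of the 9 genes, against 12.5% in MitoParks. For P2ry13 the log2 fold change was 0.13 (standard error 0.32), and its interval from -0.60 to 0.86 was the only one to include a 1.5-fold fall (edgeR, unadjusted p = 0.698; exact permutation test, p = 0.6). Without littermate control 3 the log2 fold change was 0.63 and edgeR's unadjusted p was 0.0236, past both cutoffs, while the adjusted p was 1.000.

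P2ry12 and P2ry13 are neighbours on chromosome 3, on the same strand. Their promoter windows, from 250 bases before to 50 bases after the RefSeq start (GRCm38.p6), are shown because both genes followed nearly the same order of mice below, and that of Siglech because it was the member whose groups did not overlap. Capitals mark GAGGAA or its reverse complement, the core letters of the site of PU.1, the transcription factor that microglia and other macrophages depend on.
P2ry12, chr3:59262936-59263235, minus strand: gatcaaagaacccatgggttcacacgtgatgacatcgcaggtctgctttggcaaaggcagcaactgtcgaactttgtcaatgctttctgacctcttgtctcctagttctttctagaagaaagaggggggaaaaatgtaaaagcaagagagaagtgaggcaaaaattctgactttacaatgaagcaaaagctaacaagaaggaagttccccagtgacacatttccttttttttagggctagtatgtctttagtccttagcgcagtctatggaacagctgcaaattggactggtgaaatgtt
P2ry13, chr3:59210833-59211132, minus strand: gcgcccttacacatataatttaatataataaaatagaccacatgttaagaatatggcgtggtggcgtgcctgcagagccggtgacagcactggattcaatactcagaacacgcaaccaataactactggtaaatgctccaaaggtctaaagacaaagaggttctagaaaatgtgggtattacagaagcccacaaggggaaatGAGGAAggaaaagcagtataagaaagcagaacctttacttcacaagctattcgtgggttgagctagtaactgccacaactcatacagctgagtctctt
Siglech, chr7:55767934-55768233, plus strand: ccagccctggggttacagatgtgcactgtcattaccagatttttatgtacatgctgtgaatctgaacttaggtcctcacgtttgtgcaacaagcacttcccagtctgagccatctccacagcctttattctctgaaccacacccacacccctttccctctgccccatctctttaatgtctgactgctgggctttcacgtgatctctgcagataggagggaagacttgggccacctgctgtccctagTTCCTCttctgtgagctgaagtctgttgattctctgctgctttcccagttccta

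The letters GAGGAA, searched on both strands, were in the windows of P2ry13, starting 48 bases before the start site, and of Siglech, starting 4 bases before it. They were in 2 of the 8 windows searched for 6 members (Sall1 had 3 windows), and in 28.3% of all 32851 RefSeq promoter windows of this length. No window was searched for Tmem119, Csf1r and Gpr34. The member search left out a chromosome, which the share over all windows did not, so the sets compared are not fully alike. A member on that chromosome would have no window here even where the reference holds a sequence for it. A composite of GGAA and GAAA with any 2 bases between them, the letters that PU.1 and interferon regulatory factors share, was in 0 of the 8 windows and in 2.72% of all windows. The P2ry12 window held neither the letters GAGGAA nor this composite. Other forms of the PU.1 site were not searched, and whether PU.1 acts on these genes was not tested. No 50-base stretch of the P2ry12 or P2ry13 transcript was found in a transcript of any other gene of the annotation, so the 2 receptors share no such stretch. The share was 0.536% for Siglech, 0.27% for Cx3cr1, 0.0554% for Olfml3 and 0% for the other members.

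Gpr34 encodes a receptor for lysophosphatidylserine. It was at 7.80, 10.4 and 16.5 CPM across the littermate controls and 9.995, 11.9 and 13.5 CPM across the MitoParks. As for the ADP receptors, littermate control 1 was the lowest mouse and littermate control 3 the highest, with the MitoParks between them. Gpr34 had a log2 fold change of 0.02 (standard error 0.26, 95% interval -0.57 to 0.62), with an unadjusted p of 0.928 by edgeR and p = 0.9 by exact permutation.

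Cx3cr1 encodes the receptor for fractalkine, a chemokine that neurons carry on their surface. It was at 38.5, 38.7 and 49.9 CPM across the littermate controls and 45.5, 38.1 and 42.4 CPM across the MitoParks. This was the only member with a fitted level below that of the controls, by a log2 fold change of -0.01 (standard error 0.14), and scaling by total counts alone turned this to 0.0038. Its interval, from -0.33 to 0.30, was inside 1.5-fold both ways (edgeR, unadjusted p = 0.927; exact permutation test, p = 1).

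Csf1r encodes the receptor tyrosine kinase for CSF1 and IL-34, on which microglia depend for survival. It had the most counts of the 9 genes, between 532 and 740 per mouse. Its level was 59.2, 70.3 and 69.7 CPM in littermate controls 1, 2 and 3 and 83.1, 68.5 and 75.5 CPM in MitoParks 1, 2 and 3. MitoPark 2 lay below 2 of the controls, and the other MitoParks above all 3. Csf1r had a log2 fold change of 0.19 (standard error 0.12, 95% interval -0.08 to 0.46), with an unadjusted p of 0.148 by edgeR and p = 0.3 by exact permutation.

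Siglech encodes a sialic acid-binding lectin that signals through the adaptor Tyrobp (DAP12). It was at 8.58, 10.7 and 11.1 CPM across the littermate controls and 11.3, 11.4 and 16.6 CPM across the MitoParks. Each MitoPark was above each control, although the gap between littermate control 3 and MitoPark 1 was small, with 114 and 93 counts in libraries of different size. Siglech was the only member whose groups did not overlap, which was so for 4.71% of all 14568 genes tested. It also had the largest change of the 9 genes, a log2 fold change of 0.37 (standard error 0.20, 95% interval -0.09 to 0.82). The unadjusted p was 0.101 by edgeR, and the exact permutation test gave p = 0.1, the smallest that 3 mice against 3 allow. Without MitoPark 3, the log2 fold change of Siglech was 0.16.

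Tmem119 encodes a transmembrane protein used to tell microglia from macrophages that enter the brain. It was at 12.1, 16.9 and 14.6 CPM across the littermate controls and 16.9, 16.6 and 16.8 CPM across the MitoParks. The MitoParks were nearly alike, with a coefficient of variation of 1.08%, and littermate control 2 lay among them. Its log2 fold change was 0.203 (standard error 0.15, 95% interval -0.14 to 0.55), with an unadjusted p of 0.213 by edgeR and p = 0.3 by exact permutation.

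Olfml3 encodes a secreted olfactomedin-like protein. It was at 12.6, 13.2 and 18.9 CPM across the littermate controls and 16.3, 16.8 and 22.3 CPM across the MitoParks. Littermate control 3 was above MitoParks 1 and 2, so the groups overlapped. For Olfml3 the log2 fold change was 0.31 (standard error 0.20, 95% interval -0.13 to 0.75), with an unadjusted p of 0.147 by edgeR and p = 0.3 by exact permutation. Leaving out littermate control 3 gave 0.52, short of 1.5-fold, at an unadjusted p of 0.0201 by edgeR.

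Sall1 encodes the zinc finger transcription factor that holds microglia in their own identity. It was at 24.6, 21.6 and 34.8 CPM across the littermate controls and 27.8, 28.2 and 30.3 CPM across the MitoParks. All MitoParks lay between the second and the highest control. Its log2 fold change was 0.09 (standard error 0.18, 95% interval -0.302 to 0.48), with an unadjusted p of 0.615 by edgeR and p = 0.7 by exact permutation.

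**Figure D2:**
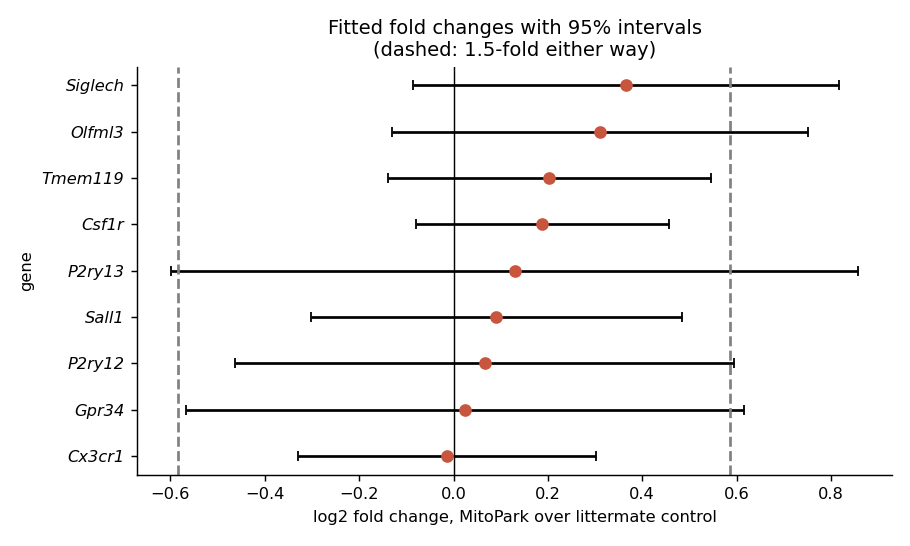
Log2 fold change of MitoPark over littermate control (x axis) for each homeostatic microglia gene (y axis), from edgeR's quasi-likelihood fit of 3 against 3 mice, with 95% intervals and dashed lines at 1.5-fold either way. All 9 intervals hold 0, and those of Cx3cr1, Csf1r, Sall1 and Tmem119 lie between the dashed lines.

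Of the 9 members, 0 were called, where 0.577% of the 14568 genes tested were called. At an unadjusted p below 0.05 alone, 0 of 9 members passed, against 1.11% of all genes, and at an adjusted p below 0.05 no member and 0% of all genes passed. The adjusted p was 0.999 for each member (edgeR, quasi-likelihood test with Benjamini-Hochberg adjustment). DESeq2's Wald test, limma-voom and edgeR's exact test also called 0 members. The median log2 fold change was 0.13 over the members and -0.0047 over all genes tested. The sign of 5 members depended on which mouse was left out, with P2ry12, P2ry13, Cx3cr1, Sall1 and Gpr34 each on either side of 0, while Tmem119, Csf1r, Siglech and Olfml3 were above 0 in each of the 6 fits.

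Littermate control 1 had the lowest level of 7 of the 9 genes and littermate control 3 the highest of 5, and the 9 genes together summed to 188.3, 218.5 and 267.4 CPM across the littermate controls and 242.7, 234.9 and 262.7 CPM across the MitoParks. Oligodendrocyte genes differed among the mice in a like way: 8 markers, among them the myelin basic protein gene Mbp, summed to 7178, 10098 and 18952 CPM across the littermate controls and 9804, 12721 and 16004 CPM across the MitoParks. For P2ry12 and Gpr34 the order of the 6 mice was the same as for the oligodendrocyte sum. For P2ry13 only littermate control 2 and MitoPark 1 changed places. The order of the oligodendrocyte sum was not particular to oligodendrocyte genes. The astrocyte gene Aqp4 had it too, with 161, 196 and 409 CPM across the littermate controls and 164, 361 and 392 CPM across the MitoParks. The sum of 8 astrocyte genes did not, at 4233, 4251 and 4938 CPM and 4449, 5029 and 4805 CPM. Only the oligodendrocyte sum was fitted below.

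The likeness to the oligodendrocyte sum was noticed after the values were seen. It was then measured by adding the log2 oligodendrocyte sum to the edgeR model beside the groups. Because the same values led to the choice of this sum, the p-values and counts below describe the likeness and are not an independent test of it. P2ry13 rose 1.91-fold for each doubling of the oligodendrocyte sum (log2 slope 0.93, standard error 0.19, adjusted p = 0.0211), Gpr34 1.66-fold (slope 0.74, standard error 0.17, adjusted p = 0.0406) and P2ry12 1.58-fold (slope 0.66, standard error 0.15, adjusted p = 0.0378). These 3 of 9 members had an adjusted p below 0.05, against 2.77% of all genes tested, and 5 of 9 had an unadjusted p below 0.05, against 15.1% of all genes. Olfml3 (slope 0.48) and Sall1 (slope 0.36) had unadjusted p-values of 0.00816 and 0.0269 and did not pass after adjustment. The slopes of Siglech, Cx3cr1, Tmem119 and Csf1r were 0.35, 0.20, 0.09 and 0.07, with adjusted p-values between 0.447 and 0.867. The slopes of different members were not tested against each other.

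With the oligodendrocyte sum in the model, the MitoPark log2 fold changes were -0.0226 for P2ry12, 0.0764 for P2ry13 and -0.0495 for Gpr34, and 0 members were called. In fits that each left out 1 mouse, the slope ranged from 0.56 to 0.94 for P2ry12, from 0.68 to 1.01 for P2ry13 and from 0.69 to 0.76 for Gpr34. The slopes of Olfml3 (0.42 to 0.61) and Siglech (0.22 to 0.74) stayed above 0 as well. For Sall1, Cx3cr1, Tmem119 and Csf1r the lowest slope was below 0. The number of members with an adjusted p below 0.05 was 0 without littermate control 1, littermate control 2, littermate control 3 or MitoPark 1, 3 without MitoPark 2 and 2 without MitoPark 3. Over all genes the share with an adjusted p below 0.05 was 0.508%, 1.76% and 0.164% without littermate controls 1, 2 and 3 and 1.18%, 6.18% and 3.28% without MitoParks 1, 2 and 3. At an unadjusted p below 0.05, 5 members passed in each of these fits but that without littermate control 3, where 1 did, while the share of all genes was between 7.06% and 19.8%. Littermate controls 1 and 3 lie farthest from the middle of the oligodendrocyte sum. Without them, the slopes were 0.83, 0.502 and 0.61 for P2ry12, P2ry13 and Gpr34, and 0.77 and 0.63 for Siglech and Olfml3. Sall1 had a slope of 0.17, and those of Tmem119, Cx3cr1 and Csf1r were below 0. In that fit none of the 9 had an unadjusted p below 0.05, against 4.55% of all genes. Littermate control 3 was highest in DAergic genes as well, and whether cells of the dissected piece or expression per cell differed was not tested.

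**Figure D3:**
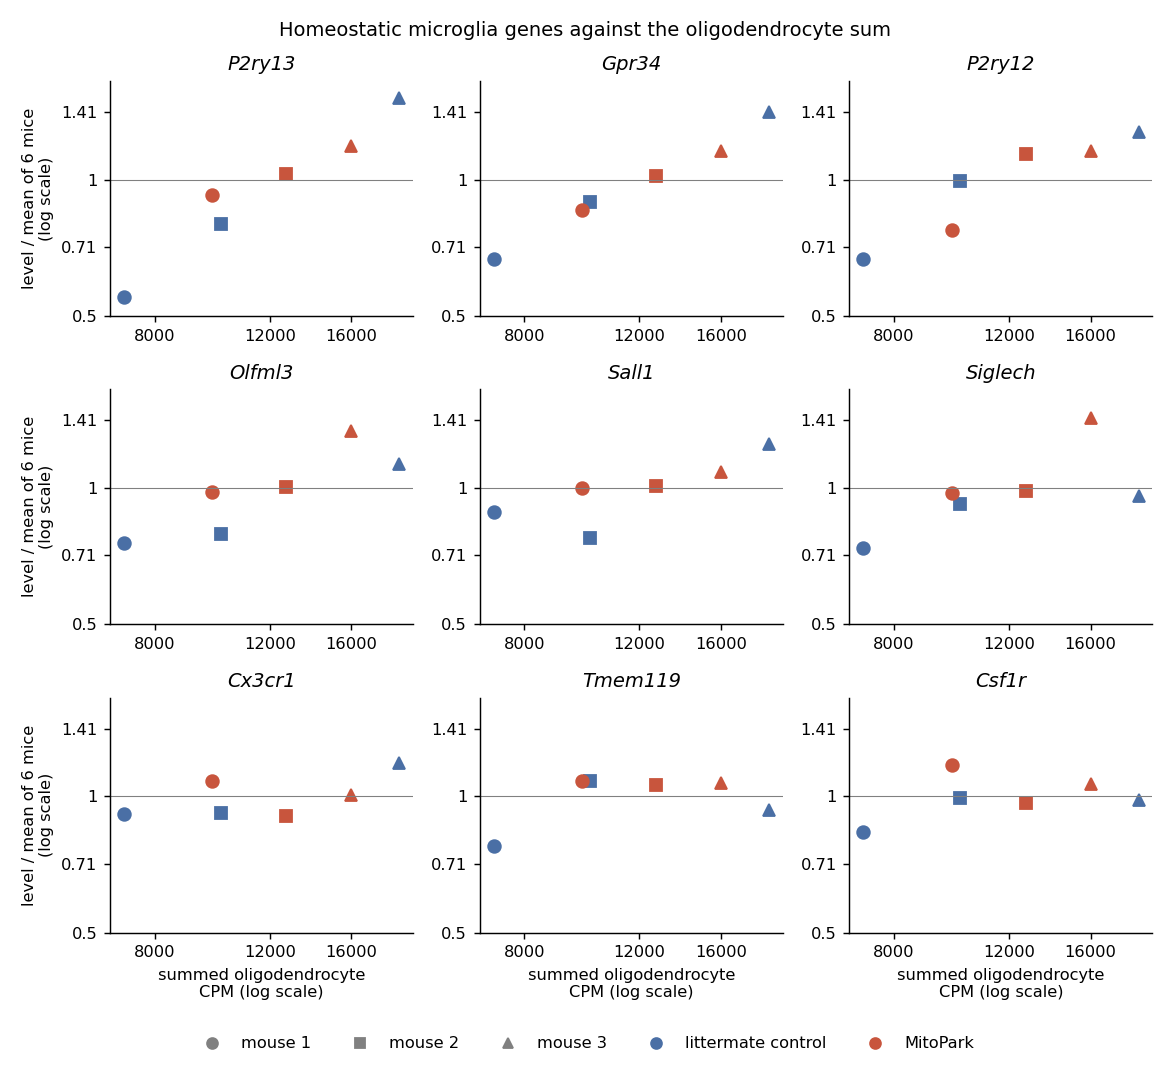
Level of each homeostatic microglia gene relative to its mean over the 6 mice (y axis, log scale) against the summed CPM of 8 oligodendrocyte genes (x axis, log scale), with littermate controls in blue, MitoParks in red and symbols for mice 1, 2 and 3. Panels run from the steepest slope, P2ry13 at 0.93, to the flattest, Csf1r at 0.07.

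The ligands of the member receptors showed no call either, where 0.577% of all genes tested were called. Of 14 genes for ligands and TGF-beta signalling, 0 were called, 7 were higher and 7 lower, and the median log2 fold change was -0.00024. Cx3cl1, the gene of fractalkine, was at 254 ± 35.5 CPM in littermate controls and 228 ± 33.2 CPM in MitoParks (SD, n = 3 each), with a log2 fold change of -0.15 (unadjusted p = 0.312 by edgeR). For the CSF1 receptor, Csf1 had a log2 fold change of 0.21 and Il34 of 0.05 (unadjusted p = 0.308 and 0.687). Tgfb1, a TGF-beta ligand, had one of 0.25 (unadjusted p = 0.462). The 8 transcription factors of microglia and macrophages gave 0 calls, with 4 higher and 4 lower and a median of 0.11. The most abundant were Mef2a (-0.04), Mef2c (-0.02) and Etv5 (-0.01). For 2 of the 8, Spi1 (0.51) and Ikzf1 (0.48), each MitoPark was above each control, and groups were apart in either direction for 4.71% of all genes. Their unadjusted p-values were 0.126 and 0.0748 by edgeR. Runx1 went the other way (-0.43, unadjusted p = 0.333 by edgeR).

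Among 14 other genes enriched in microglia, 9 were higher and 5 lower, and the median log2 fold change was 0.11. Of all genes 0.577% were called, and of these 14 genes 1 was. This was Fcrls, an Fc receptor-like gene of mouse microglia, which was at 2.00, 10.9 and 7.43 CPM across the littermate controls and 2.32, 2.83 and 3.85 CPM across the MitoParks. Littermate control 1 was the lowest of the 6 mice, so the groups overlapped. Fcrls was lower in MitoParks by a log2 fold change of -1.18 (standard error 0.51, unadjusted p = 0.0438 and adjusted p = 0.999 by edgeR). The call of Fcrls was kept without littermate control 1 (-1.60) and lost without any other single mouse, with -0.66 without littermate control 2 and between -1.02 and -1.40 without littermate control 3 or MitoPark 1, 2 or 3. It was also lost with limma-voom (-0.94, unadjusted p = 0.154) and with robust dispersion estimates in edgeR (unadjusted p = 0.065). The lysosomal protease gene Ctss had a log2 fold change of 0.24, and Cst3, a protease inhibitor gene that astrocytes express too, had one of 0.11, with unadjusted p-values of 0.0954 and 0.456.

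Of 14 genes that microglia and other macrophages share, 0 were called, where 0.577% of all genes tested were called. Fitted levels were above those of the controls for 13 and below for 1, and the median log2 fold change was 0.29, against 0.13 for the homeostatic genes. Unadjusted p-values below 0.05 were reached by 3 of them, the complement gene C1qa (0.34), the lysosomal membrane gene Laptm5 (0.44) and Cd68 (0.58), where 1.11% of all genes passed. Each MitoPark was above each control for 5 of the 14 genes, and groups were apart in either direction for 4.71% of all genes. This count of 3 was 0 without littermate control 1, without littermate control 2 or without MitoPark 3, and 6 without littermate control 3. C1qa was at 27.5, 29.3 and 32.6 CPM across the littermate controls and 36.8, 33.6 and 42.7 CPM across the MitoParks, so each MitoPark was above each control. C1qb, of the same complement complex, had a log2 fold change of 0.29 (unadjusted p = 0.0543 by edgeR), and its groups overlapped. Cd68 was named after its values were seen.

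Together the 14 shared genes summed to between 167.9 and 207.1 CPM in littermate controls and between 209.6 and 261.9 CPM in MitoParks. The 9 homeostatic genes came to 112.1, 121.9 and 129.1 per 100 CPM of the shared genes across the littermate controls, against 113.5, 112.1 and 100.3 across the MitoParks. MitoPark 3 was lowest in this ratio and littermate control 3 highest, and MitoPark 1 lay above littermate control 1. No test was made over the summed lists.

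Border macrophages, which lie along vessels and meninges, also express Csf1r and Cx3cr1. Their 8 markers summed to between 16.6 and 21.4 CPM in littermate controls and between 23.5 and 27.1 CPM in MitoParks. All 5 that passed the filter were higher and 2 were called, Mrc1 and F13a1, where 0.577% of all genes were called. For both, the adjusted p was 0.999 by edgeR, and counts lay between 14 and 46 per mouse. Mrc1, the mannose receptor gene, was at 2.00, 2.47 and 2.44 CPM across the littermate controls and 3.66, 4.65 and 4.195 CPM across the MitoParks, so each MitoPark was above each control. Its log2 fold change was 0.85 (unadjusted p = 0.00817 by edgeR), and it was called without any 1 of the mice. F13a1, a clotting factor subunit gene, had one of 0.79 (unadjusted p = 0.0323), and was no longer called without littermate control 1 (0.72), littermate control 2 (0.69), MitoPark 2 (0.63) or MitoPark 3 (0.78), or by DESeq2's Wald test (0.79, unadjusted p = 0.0806). Pf4, another of these markers, did not pass the filter and had between 2 and 8 counts in every mouse. The part of these cells in the levels of the homeostatic genes was not tested.

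Of 14 genes known from disease-associated microglia, 10 passed the filter. Of these 10, 8 were higher and 2 lower, with a median log2 fold change of 0.15. None was called, where 0.577% of all genes tested were called. The most abundant were Apoe (0.23), Ctsb (-0.06) and Ctsd (0.04), which astrocytes or neurons express as well. Cst7, Itgax, Clec7a and Lgals3 did not pass the filter and were not tested. Cst7 had between 0 and 3 counts per mouse, which is at or under the floor of 3 counts.

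Markers of the other cell types that the dissected tissue holds gave 0 calls apart from Slc6a3, where 0.577% of all genes tested were called. The median log2 fold change was -0.09 for 8 neuronal genes, 0.11 for 8 astrocyte genes, 0.02 for the 8 oligodendrocyte genes and 0.03 for 8 genes of endothelial cells and pericytes. Of the astrocyte genes 6 were higher and 2 lower. The largest change among them was that of Gfap (0.70, unadjusted p = 0.0548 by edgeR), whose groups overlapped. The 4 genes of oligodendrocyte precursors had a median of 0.00085, 5 tested choroid plexus genes one of -0.14, 7 striatal genes one of 0.22 and 5 red cell genes one of 0.22. The choroid plexus genes summed to between 27.8 and 189 CPM in littermate controls and between 39.7 and 63.7 CPM in MitoParks.

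**Figure D4:**
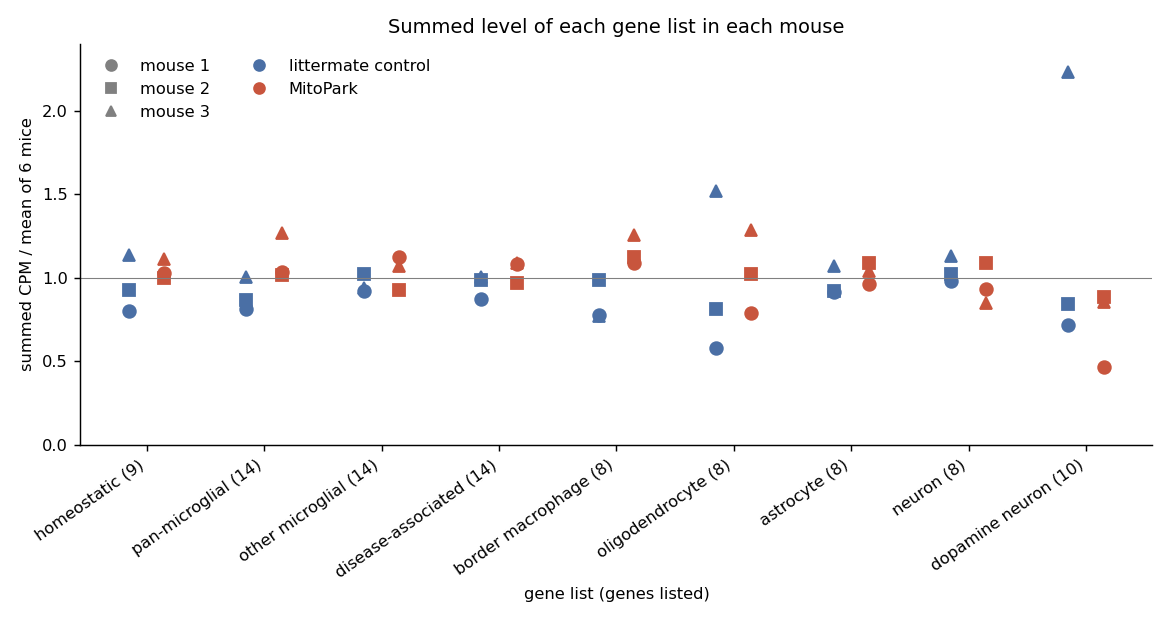
Summed CPM of each gene list (x axis, with the number of genes listed) in each mouse, divided by its mean over the 6 mice (y axis, from 0), for littermate controls in blue and MitoParks in red. The groups do not overlap for the pan-microglial and border macrophage sums and overlap for the homeostatic sum, and littermate control 3 is highest for oligodendrocyte and dopamine neuron genes.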

How the data were processed

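Polyadenylated RNA was sequenced from the SN of 6 mice with a kit that marks strand. The deposited values are expected counts per gene, not scaled, which the authors obtained with RSEM 1.2.15 after alignment with Bowtie2 2.1.0 against transcripts from UCSC. The submitters' processing notes name the build hg38, which is a human genome, although the gene names are those of mouse, so no coordinate was taken from them. Groups came from the sample labels, and 0 columns belonged to no mapped sample.

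Expected counts were rounded before testing. A gene was tested if either group averaged over 1 CPM, which left 14568 genes. EdgeR 4.0.16 (R 4.3.3) fitted the 2 groups with TMM normalization and its quasi-likelihood test, and p-values were adjusted by Benjamini-Hochberg over all genes. Calls required more than a 1.5-fold difference and, before adjustment, p below 0.05. Exact two-sided permutation tests used log2(CPM + 0.1) and cannot give a p below 0.1. Each pair of libraries of the same group differed beyond sampling noise (chi-square per degree of freedom of at least 9.68). This does not show whether the preparations were separate. Each library was taken as 1 mouse and 1 replicate, as labelled. The labels do not say how mice were batched.

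The members and gene lists were chosen with earlier results of these data known. The genes named are the 9 members, Tfam, 4 ligands, and from each list described the called genes or the 3 most abundant, and others were named after their values were seen. Some genes of the lists are not reported here by name. Alternatives were other normalizations, filters and tests (DESeq2 1.42.0, limma 3.58.1), each mouse left out in turn, and the replicate block. The oligodendrocyte covariate, the alternatives for genes and lists other than the members, and the RefSeq length of Olfml3 were added after the data were seen. The scripts were tested on simulated data. Transcript lengths are from GENCODE M21 and promoters from RefSeq (GRCm38.p6).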

Additional observations from a re-analysis of the deposited data

How the results depend on the processing

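With 3 mice per group, the 95% intervals of 5 of the 9 genes reached past 1.5-fold. Of 162 member values under the alternatives, 13 changed sign and 1 passed the cutoffs, P2ry13 without littermate control 3. The log2 fold change ranged, with each mouse left out in turn, from -0.14 to 0.301 for P2ry12, from -0.14 to 0.63 for P2ry13, from -0.0748 to 0.12 for Cx3cr1, from -0.0481 to 0.32 for Sall1 and from -0.18 to 0.37 for Gpr34. It changed sign with total counts for Cx3cr1 (0.0038), and with the oligodendrocyte sum in the model for P2ry12 (-0.0226) and Gpr34 (-0.0495), and the cause was not tested. With each mouse left out, between 0 and 1 members were called, between 5 and 9 were higher and between 62 and 219 of all genes were called. Without a filter 176 genes were called in all, and with the oligodendrocyte sum 151. The number of members whose slope on that sum had an adjusted p below 0.05 was between 0 and 3 with each mouse left out, where between 0.164% and 6.18% of all genes passed, and 0 without littermate controls 1 and 3, where 0.0683% passed. At an unadjusted p below 0.05, 5 members passed with each mouse left out except littermate control 3, without which 1 passed. Same-numbered mice of the 2 groups are not known to share a litter or batch, and their deviations from the group means correlated at 0.31, -0.07 and 0.24, so the numbers were not taken as pairs. With the replicate block, 0 members were called, 8 were higher, and the median log2 fold change of the members was 0.19, with 126 of all genes called.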
